A study of Mus musculus with 2 samples.

Results

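Spi1, Irf4, Irf8, Maf, Cebpa, Cebpb, Zeb2, Zbtb46 and Runx3 encode transcription factors of blood cell lineages, and most are known from myeloid cells. These 9 genes were taken by symbol from the 31053 genes in both count matrices. The rule used no measured value, but the list was chosen with earlier results of these data known. Transcripts had been counted in single cells of the mouse colon, isolated with collagenase D and sorted on CD11b, CD11c and CD64. The animals were chimeras, in which CD45.1 recipients carried CD45.2 bone marrow from IL-10R KO donors, lacking the receptor chain gene Il10rb, or from IL-10R/CerS2 DKO donors, lacking Il10rb and Cers2. Cers2 encodes a synthase of very-long-chain ceramides. Donor cells of both groups therefore lack the IL-10 receptor, and no library of wild-type donors is part of the comparison. There is 1 library per genotype, so animals, library and genotype cannot be told apart. Values in square brackets are 95% intervals of counting error, and nothing here measures the spread between animals.

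The KO matrix contained 2584 barcodes with 12549471 unique molecular identifiers (UMIs, one per captured transcript), and the DKO matrix 742 barcodes with 3414944. After limits on detected genes and mitochondrial share, 2443 KO and 730 DKO cells remained, with medians of 4715 and 3722 UMIs. Cers2, intact in KO donors and deleted in DKO donors, had 552 UMIs in the KO library and 2 in the DKO library. The libraries had 1 barcode in common.

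Classes were gated on lists of 8 marker genes each, none of them among the 9 factors. A cell entered a lineage when at least 3 markers of it had a UMI and it led every other lineage by at least 2 markers. The monocyte/macrophage lineage took 1030 KO and 240 DKO cells, split into 221 and 50 monocytes, 629 and 152 macrophages, 34 and 19 nonclassical monocytes and 146 and 19 intermediate cells. Intermediate cells are those in which no list of these 3 classes led the next by 2 markers. The dendritic lineage took 70 and 40 cells, the lymphoid lineage 511 and 273 and the neutrophil gate 124 and 39. Few markers left 497 and 91 cells ungated, and mixed markers another 197 and 44. Both libraries are labelled as colon macrophages, and the sort was designed against neutrophils and lymphocytes, but all of these were found by their markers.

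The levels of a gate's own markers follow from the gating and are given as a description. Macrophage markers such as C1qa, Apoe and Mrc1 summed to 15117 and 17696 UMIs per 1000000 UMIs of the class (counts per 1000000, CPM) in KO and DKO macrophages, against 866 and 822 in monocytes. Monocyte markers such as Ly6c2 and Vcan summed to 2704 and 2678 CPM in monocytes, against 303 and 459 in macrophages. Nonclassical monocyte markers summed to 913 and 619 CPM in intermediate cells, against 518 and 328 in monocytes and 338 and 228 in macrophages. B cell markers summed to 5604 and 5849 CPM in the B cell gate and T cell markers to 4164 and 4452 CPM in the joint gate of T and innate lymphoid cells, where all 8 markers of each list were detected in both libraries. At a gate's edge, where the loss of 1 marker would have moved the cell, were 289 KO and 54 DKO monocyte/macrophage cells and 30 and 14 dendritic cells.

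Blood lineages are set by combinations of factors rather than by single ones. PU.1, the product of Spi1, opens myeloid enhancers and binds composite DNA sites together with IRF4 or IRF8. C/EBPα and C/EBPβ drive granulocyte and monocyte programmes, the latter also under inflammation. IRF8 is needed for type 1 dendritic cells and in monocyte development, IRF4 acts in type 2 dendritic cells, alternatively activated macrophages and plasma cells, and ZBTB46 marks conventional dendritic cells. c-MAF acts in macrophages and helper T cells, where it promotes Il10, ZEB2 in monocyte, macrophage and dendritic fate, and RUNX3 in cytotoxic and innate lymphocytes as well as in mononuclear phagocytes.

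In GRCm38 with GENCODE annotation, chromosome 2 carries Zeb2 (ENSMUSG00000026872, chr2:44983632-45117395, minus strand), Spi1 (ENSMUSG00000002111, chr2:91082390-91115756, plus strand), Cebpb (ENSMUSG00000056501, chr2:167688915-167690418, plus strand) and Zbtb46 (ENSMUSG00000027583, chr2:181387762-181459426, minus strand). Chromosome 8 carries Maf (ENSMUSG00000055435, chr8:115682942-115707794, minus strand) and Irf8 (ENSMUSG00000041515, chr8:120736358-120756694, plus strand). The others are Runx3 (ENSMUSG00000070691, chr4:135120652-135177990, plus strand), Cebpa (ENSMUSG00000034957, chr7:35119293-35121928, plus strand) and Irf4 (ENSMUSG00000021356, chr13:30749226-30766976, plus strand). Genes on the opposite strand overlap Cebpb (Tmem189, 2084 UMIs over both libraries) and Zeb2 (Zeb2os, 350 UMIs), and the 3′ chemistry keeps strand. Gm20388, a protein-coding gene with 0 UMIs, overlaps Irf8 on the same strand, where strand cannot separate them. The part of this overlap in the Irf8 counts was not tested.

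RefSeq promoter windows of GRCm38.p6, read as the 250 bases before the start, were found for 7 of the 9 genes, all but Spi1 and Maf. The Zbtb46 window ends 35038 bases from the gene start used above, and the other windows within 47 bases of theirs. Those of Irf8 and Irf4 are shown because these genes led the genotype ratios in monocytes and macrophages, and that of Runx3 because it holds repeated matches to the motif of its own family. Capitals mark motif matches on either strand.
Irf8, chr8:120736108-120736357, plus strand: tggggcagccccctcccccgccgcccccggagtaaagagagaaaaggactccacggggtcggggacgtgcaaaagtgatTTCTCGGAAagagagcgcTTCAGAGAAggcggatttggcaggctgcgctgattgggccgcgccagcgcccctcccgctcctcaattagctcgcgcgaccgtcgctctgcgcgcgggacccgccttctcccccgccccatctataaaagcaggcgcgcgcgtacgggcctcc
Irf4, chr13:30748983-30749232, plus strand: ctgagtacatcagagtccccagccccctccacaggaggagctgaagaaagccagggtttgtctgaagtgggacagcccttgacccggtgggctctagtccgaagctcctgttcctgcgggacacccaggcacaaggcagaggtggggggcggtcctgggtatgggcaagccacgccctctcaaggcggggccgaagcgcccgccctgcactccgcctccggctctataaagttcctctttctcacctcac
Runx3, chr4:135120395-135120644, plus strand: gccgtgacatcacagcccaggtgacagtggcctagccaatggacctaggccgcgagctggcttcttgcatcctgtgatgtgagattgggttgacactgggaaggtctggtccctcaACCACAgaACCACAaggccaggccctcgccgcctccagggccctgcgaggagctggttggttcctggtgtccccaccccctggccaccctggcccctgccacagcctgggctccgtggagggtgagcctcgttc
The Irf8 window held 2 matches to the STAT motif TTCNNNGAA, 171 and 153 bases before the start. That motif occurs in 7.02% of 32851 windows of this length. The Runx3 window held 2 matches to the RUNX motif TGTGGT on the reverse strand, 134 and 126 bases before the start, and 14% of windows hold it. The Irf4 window matched none of the 8 motifs searched. The other motifs were C/EBP TTGCNNAA (in 9.56% of windows, and matched once, before Zeb2), PU.1 GAGGAAGT (2.44%), the ETS core CCGGAAGT (2.88%), CREB TGACGTCA (1.55%), the ETS-IRF composite, GGAA and GAAA 2 bases apart (2.3%), and the interferon response core, GAAA and GAAA 2 bases apart (2.98%). The last pair can overlap each other. The PU.1 and ETS motifs share GGAAGT but differ in the letters before it, so a single site cannot match both. A match describes letters and not binding.

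Levels are CPM of the summed UMIs of a class and are compared between classes for 1 gene at a time, never between genes.

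**Figure D1:**
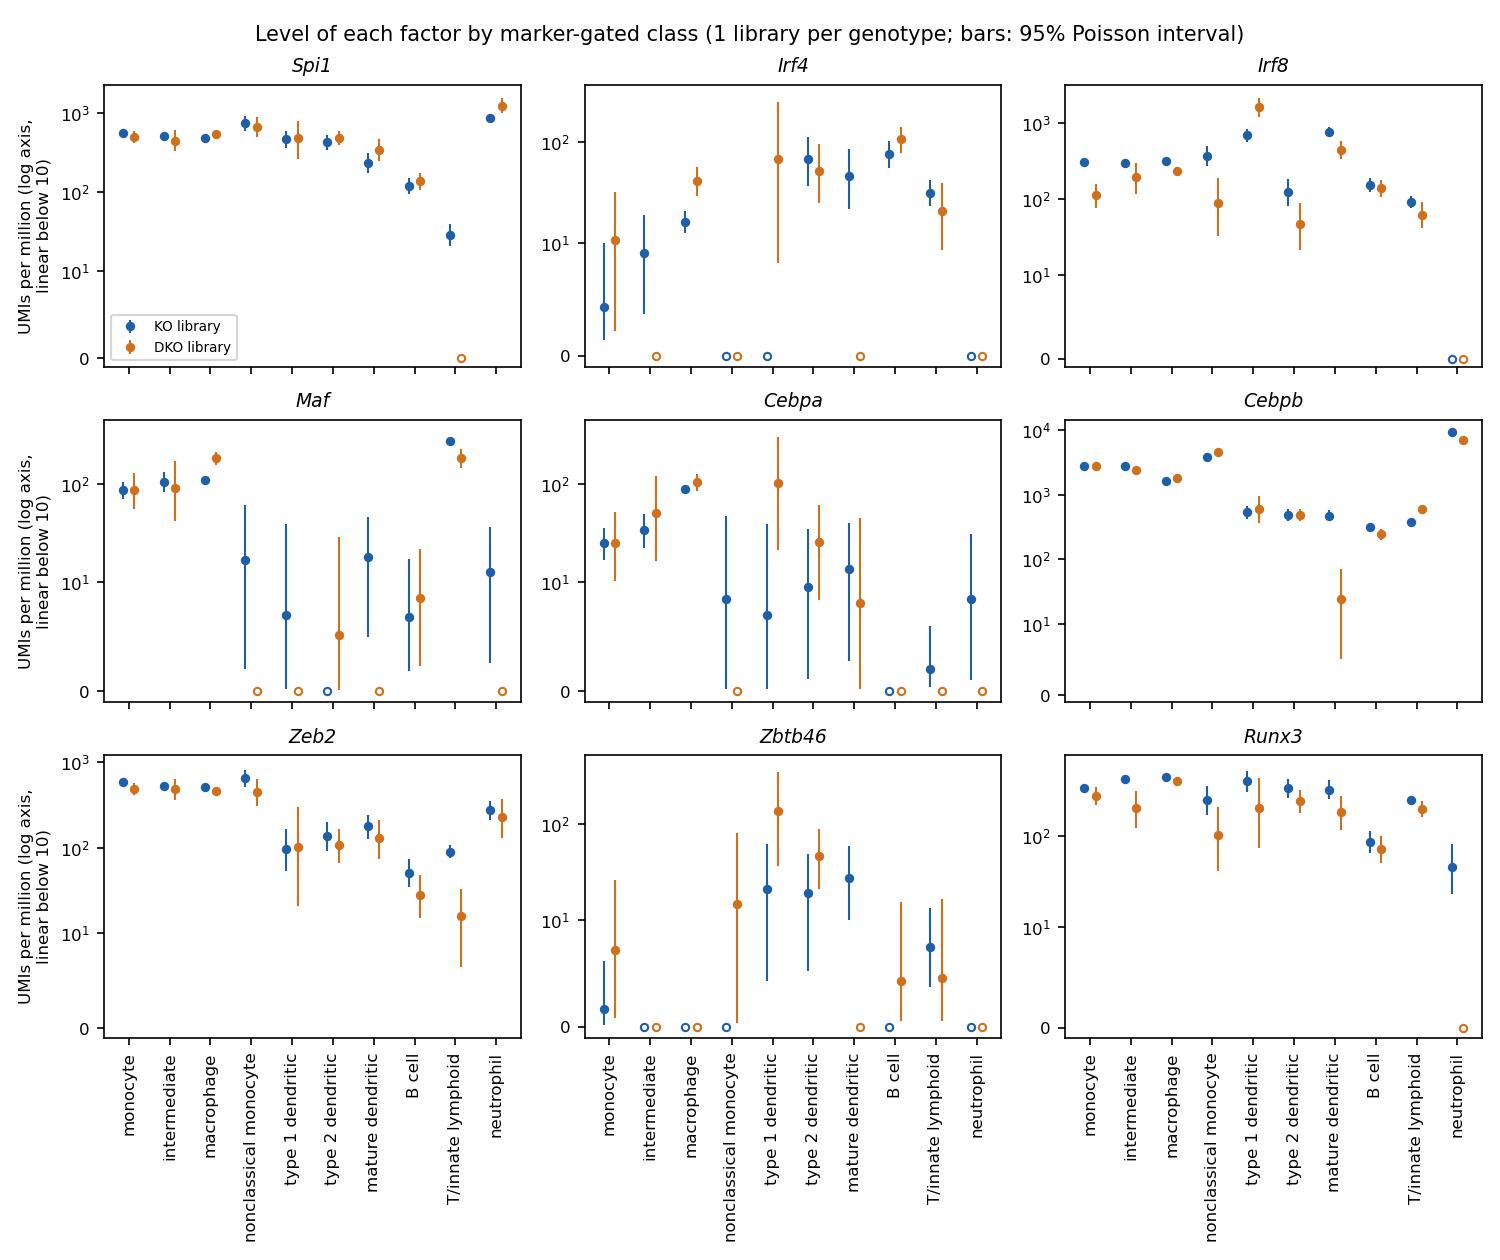
Level of each factor in 10 marker-gated classes in CPM, on a log axis that is linear below 10, for KO (blue) and DKO (orange), with bars for the 95% Poisson interval and open points for 0 UMIs. Spi1 of macrophages was 485 in KO and 533 in DKO and that of B cells 119 and 135, Irf8 of monocytes was 306 in KO and 112 in DKO, and Irf8 had 0 UMIs in neutrophils of both libraries.

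Spi1 was present in every myeloid class. Monocytes had 550.3 [508, 595] CPM in KO and 494 [415, 584] in DKO, macrophages 485 [464, 507] and 533 [487, 583], and dendritic cells 362 [315, 415] and 443 [378, 517]. In the KO order of levels the intervals of neighbouring classes overlapped from neutrophils down to type 2 dendritic cells, and mature dendritic cells, at 233 [173, 306], lay apart below them. Lymphoid cells were 9.44-fold below the monocyte/macrophage lineage in KO (log2 ratio -3.24 [-3.52, -2.98]) and 7.62-fold in DKO (-2.93 [-3.34, -2.57]). B cells, which use PU.1 in their own development, held 119 [93.1, 151] and 135 [104, 173] CPM. T and innate lymphoid cells held 42 UMIs in KO, 14 of them in 1 cell, and 0 in 109 DKO cells. B cells were thus 4.14-fold higher in KO and at least 19.7-fold higher in DKO, where the bound sets 3 counts in the T and innate lymphoid class.

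Cebpb and Cebpa ran in opposite directions between monocytes and macrophages. Cebpb was 2738 [2643, 2834] CPM in KO monocytes and 1657 [1618, 1698] in KO macrophages, a log2 ratio of -0.72 [-0.79, -0.66]. The DKO values were 2775 [2582, 2978] and 1822 [1735, 1913], a ratio of -0.61 [-0.73, -0.48]. Cebpa was 25 [16.7, 35.9] CPM in KO monocytes and 87.5 [78.5, 97.2] in KO macrophages, 3.45-fold higher, and 25.2 [10.1, 52] and 103 [83.4, 127] in DKO, 3.84-fold higher. Monocyte and macrophage intervals of both genes were apart in both libraries. Intermediate cells had 33.9 and 50.8 CPM of Cebpa and 2783 and 2386 of Cebpb. Nonclassical monocytes, the Ace and Cd300e cells, had 3818 and 4522 CPM of Cebpb. They held 1 and 0 UMIs of Cebpa, with intervals of [0.213, 46.9] and [0, 54] CPM that include the monocyte levels.

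Dendritic cells had 482 [428, 542] CPM of Cebpb in KO and 320.0 [265, 384] in DKO, 4.25-fold and 6.84-fold below the monocyte/macrophage lineage, and 6 and 10 UMIs of Cebpa. Lymphoid cells had 3 and 0 UMIs of Cebpa against 404 and 105 in the monocyte/macrophage lineage, which in DKO is at least 23.9-fold lower. Cebpb was also counted in lymphoid cells, at 316 and 243 CPM in B cells and 383 and 589 in T and innate lymphoid cells. Lyz2, a lysozyme gene of myeloid cells, stood in T and innate lymphoid cells at 3.21% of its macrophage level in KO and 0.0938% in DKO. Cebpb stood there at 23.1% and 32.3%, Zeb2 at 17.6% and 3.43%, and Spi1 at 5.92% and 0%. The part of transcripts carried over from other cells in these values was not tested. In KO B cells 57 of 185 Cebpb UMIs were in 1 cell.

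Irf8 separated the dendritic subsets. Type 1 dendritic cells, the cross-presenting subset, had 686 [557, 836] CPM in 14 KO cells and 1627 [1199.6, 2157] in 3 DKO cells. Type 2 dendritic cells had 124 [81.2, 182] in 26 KO cells and 46.4 [21.2, 88.1] in 24 DKO cells. Mature dendritic cells, marked by Ccr7 and Fscn1, had 758 [647, 882] and 447 [337, 581]. Type 1 and mature cells lay above type 2 cells without overlap in both libraries, by log2 ratios of 2.45 [1.83, 3.15] and 5.07 [4.09, 6.34] for type 1 cells and of 2.58 [2.01, 3.26] and 3.2 [2.24, 4.47] for mature cells. Spi1 was 462 and 475 CPM in type 1 and 425 and 485 in type 2 cells. Type 2 cells were also below macrophages in Irf8, with log2 ratios of -1.3 [-1.95, -0.77] and -2.25 [-3.47, -1.37]. Among lymphoid cells Irf8 was 154 and 138 CPM in B cells and 90.9 and 61.9 in T and innate lymphoid cells, and the 12 and 6 cells with more innate markers, such as Ncr1 and Klrb1c, than T cell markers had 1053 [795, 1367] and 485 [242, 868]. The KO cells among them also had 620.4 CPM of Lyz2 and 1636 of H2-Ab1, against 91 and 252 in KO T cells and 0 in the DKO cells, and their part in the Irf8 level was not tested.

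Irf4 was sparse. Its highest level in both libraries was in B cells, 75 [54.5, 101] CPM in KO and 105 [77.9, 139] in DKO, and the interval of type 2 dendritic cells, 66.9 [36.6, 112] and 51.6 [24.7, 94.9], overlapped it. Monocytes held 5 and 3 UMIs, 4.31 and 10.8 CPM, and macrophages 65 and 37 UMIs, 16.3 [12.6, 20.8] and 41.1 [28.9, 56.7] CPM. Macrophages were 3.48-fold above monocytes in KO (log2 ratio 1.8 [0.63, 3.59]) and 3.3-fold in DKO (1.72 [0.27, 4.27]). Dendritic cells were above the monocyte/macrophage lineage by 1.82 [1.1, 2.46] in KO. In DKO the ratio was 0.67 [-0.27, 1.5], and its sign was the opposite under a stricter gate (-1.25), with the gate on thinned counts (-0.78) and with clusters in place of gates (-0.02).

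Zbtb46 had 42 and 28 UMIs over all kept cells. Dendritic cells, 2.87% of KO and 5.48% of DKO cells, held 13 of them in KO and 13 in DKO, 22.3 [11.9, 38.2] and 35.6 [18.9, 60.8] CPM. Macrophages held 0 in 629 and 0 in 152 cells, so dendritic cells were at least 29.6-fold higher in KO and at least 10.7-fold higher in DKO. Another 11 and 2 UMIs were in T and innate lymphoid cells.

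Maf and Zeb2 set the monocyte/macrophage lineage apart from dendritic cells. Maf was 111 [101, 122] CPM in KO and 183 [156, 214] in DKO macrophages, against 5 UMIs and 1 UMI in dendritic cells, and the log2 ratio of dendritic over monocyte/macrophage cells was -3.46 [-5.22, -2.36] and -5.17 [-11.06, -3.26]. Zeb2 was 512 [490.5, 535] and 468 [424, 515] CPM in macrophages, 586 and 490.1 in monocytes, and 146 [117, 180.4] and 109 [78.2, 149] in dendritic cells, 3.62-fold and 4.27-fold below the lineage. Macrophage and dendritic intervals of both genes were apart. Nonclassical monocytes had Zeb2 at 648 and 454 CPM and 2 and 0 UMIs of Maf. T and innate lymphoid cells were at the top of the Maf order, with 273 [247, 301] and 183 [145, 228] CPM, where in DKO the interval overlapped that of macrophages. B cells had 4 Maf UMIs in KO and 4 in DKO, and their log2 ratio over T and innate lymphoid cells was -5.15 [-7.2, -3.95] and -4.25 [-6.33, -3.0]. All lymphoid cells against the monocyte/macrophage lineage gave Maf ratios of opposite sign, 0.84 in KO and -0.68 in DKO, and T and innate lymphoid cells were 295 of 511 lymphoid cells in KO and 109 of 273 in DKO.

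Runx3 was spread over myeloid and lymphoid classes. Macrophages had 456 [435, 477] CPM in KO and 404 [364, 448] in DKO, monocytes 345 [312, 381] and 281 [222, 351], dendritic cells 355 [309, 407] and 243 [196, 299.6], and T and innate lymphoid cells 253 [228, 280.1] and 202 [162, 249]. B cells were lower, at 87 [64.8, 114] and 73.1 [50.6, 102], with log2 ratios over T and innate lymphoid cells of -1.53 [-1.99, -1.11] and -1.45 [-2.08, -0.88]. Type 1, type 2 and mature dendritic cells overlapped one another, at 406, 339 and 329 CPM in KO.

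Neutrophils carried few of the factors. Spi1 was 852 [738, 977] CPM in KO and 1241 [994, 1530.2] in DKO neutrophils, above monocytes by log2 ratios of 0.63 and 1.33, and Cebpb was 9278 [8894, 9674] and 7129.5 [6518, 7783], above monocytes by 1.76 and 1.36. Irf8 had 0 UMIs in both libraries, at least 24.2-fold below monocytes in KO and at least 2.61-fold in DKO. Zeb2 was 274 and 228 CPM, Runx3 had 11 and 0 UMIs and Maf 3 and 0. These cells were shallow, with a median of 1672 and 1643 UMIs.

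Ratios past 1.5-fold were counted for genes with at least 20 UMIs over both sides, a rule of size and not a test. Macrophages against monocytes had 3 of 8 factors past it in the same direction in both libraries (Irf4 and Cebpa higher, Cebpb lower), beside 20.3% of 5487 genes. Dendritic against monocyte/macrophage cells had 6 of 8 (Irf4 and Irf8 higher, Maf, Cebpa, Cebpb and Zeb2 lower), beside 26.5% of 6380 genes. Lymphoid against monocyte/macrophage cells had 7 of 8 (Irf4 higher, Spi1, Irf8, Cebpa, Cebpb, Zeb2 and Runx3 lower), beside 45.2% of 7483 genes. Without the cell with the most UMIs, Irf4 (0.53) and Irf8 (0.51) of DKO dendritic over monocyte/macrophage cells came within 1.5-fold. With clusters the sign turned for Irf8 in KO (-0.10). Finer contrasts had 5 of 8 for type 2 dendritic cells against macrophages (Irf8, Maf, Cebpa, Cebpb and Zeb2 lower, 26.2% of 5210 genes), 5 of 7 for B cells against T and innate lymphoid cells (Spi1, Irf4 and Irf8 higher, Maf and Runx3 lower, 27.9% of 4768) and 6 of 6 for neutrophils against monocytes (60.9% of 2294).

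Within a gated lineage, Irf8 alone was past 1.5-fold in both libraries between type 1 and type 2 dendritic cells (1 of 5, beside 15.7% of 1409 genes) and between mature and type 2 cells (1 of 5, 20.7% of 1782), and Maf alone, lower, between nonclassical and other monocytes (1 of 6, 19.4% of 2393). None was past 1.5-fold between intermediate cells and monocytes (0 of 6, 3.1% of 2578), and Irf4 and Cebpa were higher in macrophages than in intermediate cells (2 of 8, 12.9% of 5080).

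T and innate lymphoid cells were split by innate markers such as Nkg7, Xcl1 and Klrd1, with 193 and 69 cells showing at least 2 of them and 102 and 40 fewer. Irf8 was 120.1 and 79.3 CPM in the first set and 24.6 and 22.5 in the second, log2 ratios of 2.23 [1.4, 3.33] and 1.63 [0.10, 4.19]. The first set includes the 12 and 6 cells with more innate than T cell markers, whose high Irf8 levels are given above. Their part in this difference was not tested. Runx3, a factor of cytotoxic and innate lymphocytes, was 293 (KO) and 258 (DKO) CPM in the first set and 161 and 74.9 in the second, ratios of 0.86 [0.49, 1.26] and 1.72 [0.83, 2.9]. Maf went the other way, with 146 and 62.8 CPM in the first set and 561 and 457 in the second, ratios of -1.94 [-2.25, -1.65] and -2.84 [-3.69, -2.1]. These were 3 of 4 factors, beside 8.38% of 2805 genes.

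Combinations were read in cells thinned to 1500 UMIs, which left out 1 KO and 2 DKO monocytes and 26 and 8 macrophages as too shallow. A cell without a UMI may still express a gene. Spi1 and Cebpb were seen together in 55.9% [49.1, 62.6] of KO and 62.5% [47.4, 76] of DKO monocytes, and in 42.5% and 42.4% of macrophages. The pair was seen in 8.96% and 15.4% of dendritic cells, in 7.14% and 5.7% of B cells, and in 5 of 293 and 0 of 109 T and innate lymphoid cells, where the upper limit of the last is 3.33%. Cebpb and Zeb2 were seen together in 50.5% and 43.8% of monocytes, 41.1% and 41% of macrophages and 11.9% and 2.56% of dendritic cells.

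Irf8 and Cebpb were seen together in 27.3% [21.5, 33.7] of KO and 16.7% [7.48, 30.2] of DKO monocytes and in 26.5% [23, 30.3] and 21.5% [15.1, 29.1] of macrophages, and these intervals overlapped. Irf8 and Runx3 were seen together in 14.6% [11.9, 17.7] of KO and 5.56% [2.43, 10.7] of DKO macrophages, intervals apart. This is 1 pair picked from all pairs of the factors, and the difference was not tested. Each gene alone was also lower in DKO macrophages, Irf8 at 312 CPM in KO and 232 in DKO and Runx3 at 456 and 404. Maf and Zeb2 were seen together in 8.79% and 13.9% of macrophages, in 1 of 67 and 0 of 39 dendritic cells and in 0 of 196 and 0 of 158 B cells. Irf4 and Irf8, which compete for PU.1 at composite sites, met in 7 of 603 and 1 of 144 macrophages and 3 of 196 and 5 of 158 B cells. The product of the single shares of Spi1 and Cebpb in macrophages, 42.2% in KO and 40.7% in DKO, was near the observed share.

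**Figure D2:**
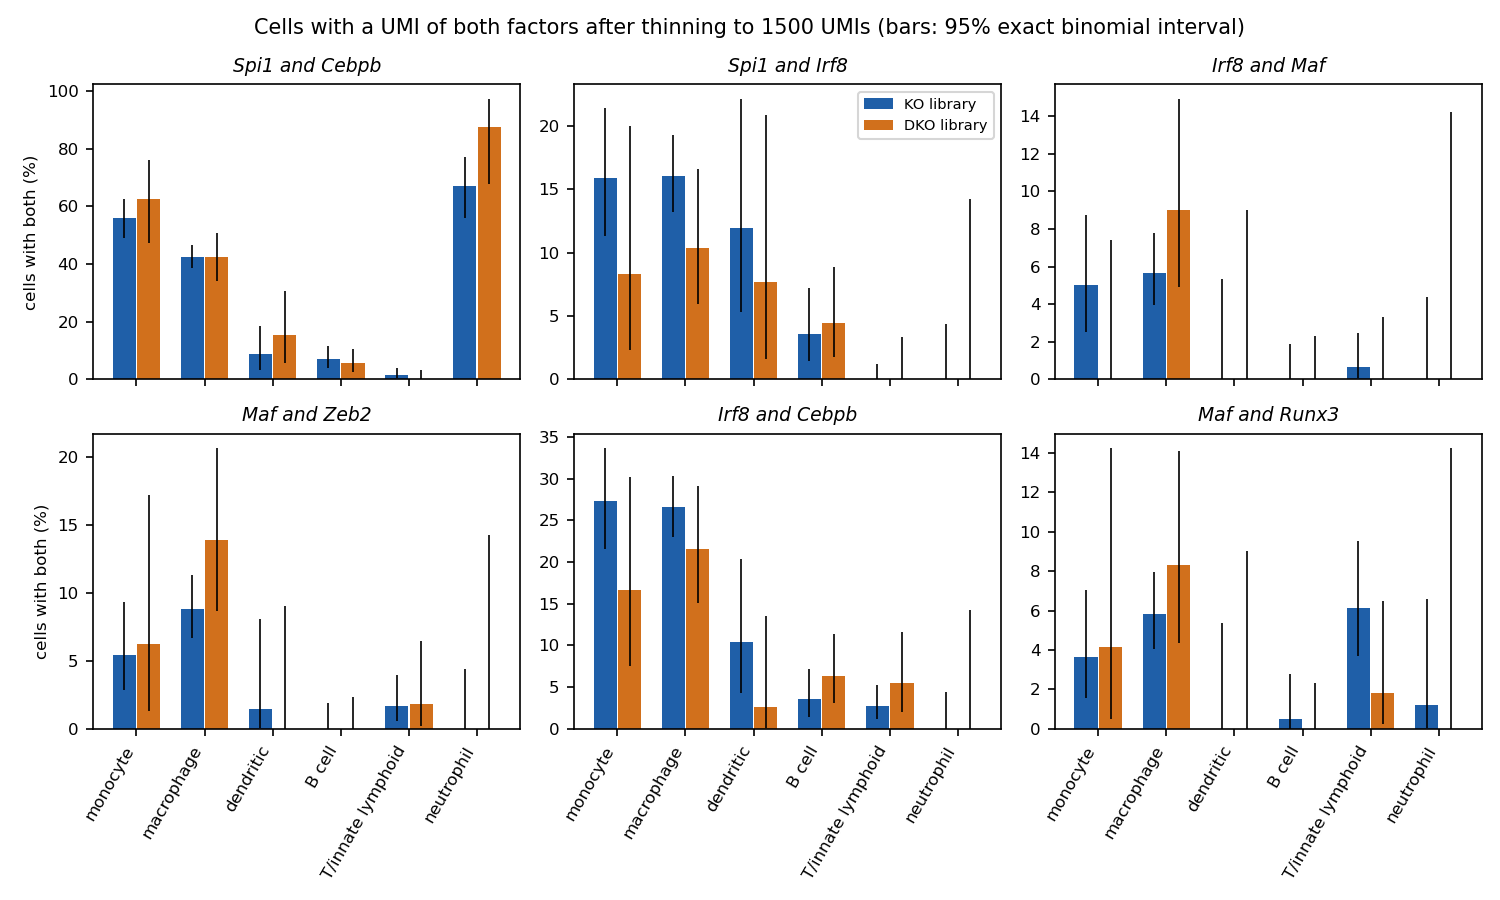
Share of cells (percent, from 0) with a UMI of both genes of a pair, after thinning to 1500 UMIs, for KO (blue) and DKO (orange), with bars for the 95% exact binomial interval. Spi1 with Cebpb was seen in 55.9% of KO monocytes, 8.96% of KO dendritic cells and 1.71% of KO T and innate lymphoid cells, and Irf8 with Cebpb in 27.3% of KO and 16.7% of DKO monocytes.

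Whole sets of factors were diverse. KO macrophages showed 96 different sets in 603 cells, the most common being Spi1, Cebpb and Zeb2 in 6.47%, and DKO macrophages 59 in 144, led by Cebpb and Runx3 in 7.64%. In KO monocytes Spi1 with Cebpb, and the same with Zeb2, each made up 11.4%, and in DKO monocytes 18.8% and 16.7%. Of the 82 of 124 KO and 24 of 39 DKO neutrophils deep enough for thinning, 46.3% of KO and 66.7% of DKO cells had Spi1 and Cebpb and no other. In B cells 37.8% and 36.7%, and in T and innate lymphoid cells 27% and 33.9%, showed none of the 9, and Cebpb alone came next.

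Comparing DKO with KO within a class asks how these factors differ when Cers2 is missing from cells that already lack the IL-10 receptor. In the monocyte/macrophage lineage Irf8 was lower and Irf4 higher in DKO. Irf8 was 311 [297, 325] CPM in KO and 197 [174, 222] in DKO, 1.57-fold lower (log2 ratio -0.65 [-0.85, -0.47]). Irf4 was 12.8 [10.1, 16] and 29.8 [21.3, 40.5] CPM from 77 and 40 UMIs, 2.34-fold higher (1.23 [0.63, 1.79]). Intervals of the levels were apart for both. Within 1.5-fold were Maf (0.51 [0.27, 0.74]), Runx3 (-0.29 [-0.44, -0.15]), Cebpa (0.23 [-0.10, 0.53]), Zeb2 (-0.17 [-0.29, -0.05]), Cebpb (0.10 [0.04, 0.16]) and Spi1 (0.06 [-0.06, 0.17]). So 2 of 8 factors were past 1.5-fold, beside 20.9% of 9224 genes, a like share. Irf8 came within 1.5-fold under a stricter gate (-0.56), with the gate on thinned counts (-0.47) and with clusters (-0.56). TMM scaling shifted every log2 ratio of this contrast by -0.11.

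In monocytes Irf8 was lower in DKO. It was 306 [275, 339] CPM in KO, from 355 UMIs in 130 of 221 cells, and 112 [75.9, 159] in DKO, from 31 UMIs in 18 of 50 cells. The DKO level was 2.7-fold lower, a log2 ratio of -1.43 [-2.03, -0.92], and the intervals were apart. Thinned, 28.6% [22.8, 35.1] of KO and 16.7% [7.48, 30.2] of DKO monocytes had an Irf8 UMI (58.8% and 36% unthinned), intervals that overlapped, against 0% of neutrophils. Markers of type 1 dendritic cells summed to 568 and 274 CPM in these monocytes (5 of 8 and 4 of 8 detected, with Xcr1 and Cadm1 at 0) and to 501 and 284 in intermediate cells, and their part in the Irf8 values was not tested. No other factor was past 1.5-fold, which made 1 of 7, beside 28.6% of 5624 genes. The intermediate and nonclassical monocyte gates had the same direction. Intermediate cells had 299 [261, 339.9] and 193 [116, 301] CPM and nonclassical monocytes 370.0 [269, 497] and 87.8 [32.2, 191], the last from 6 UMIs. Past 1.5-fold were 3 of 7 factors in intermediate cells (Irf8 -0.60, Runx3 -1.05, Cebpa 0.69, beside 38.8% of 4490 genes) and 2 of 5 in nonclassical monocytes (Irf8 -1.98, Runx3 -1.22, beside 33.6% of 1502).

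In macrophages Irf4 and Maf were past 1.5-fold, 2 of 8 factors, beside 25% of 8598 genes. Irf4 was 2.53-fold higher in DKO (1.34 [0.71, 1.94]), from UMIs in 45 of 629 KO and 24 of 152 DKO cells. Maf was 1.66-fold higher (0.73 [0.46, 0.99]), and 0.47 with clusters. Thinned, 14.8% [12, 17.8] of KO and 25.7% [18.8, 33.6] of DKO macrophages had a Maf UMI (34.3% and 46.7% unthinned), intervals apart, against 1.53% [0.317, 4.41] and 1.27% [0.154, 4.5] of B cells. Irf8 was 312 [295, 330.3] and 232 [202, 266] CPM, a ratio of -0.43 [-0.65, -0.22]. Macrophages over monocytes accordingly gave an Irf8 ratio of 0.03 [-0.14, 0.21] in KO and 1.04 [0.51, 1.65] in DKO, and a Maf ratio of 0.36 [0.05, 0.69] and 1.06 [0.46, 1.77], and the difference between libraries was not tested. Summed macrophage markers were 15117 and 17696 CPM in these gates, type 2 dendritic markers 204 and 378 with Flt3 and Cd209a at 0, type 1 dendritic markers 413 and 230.0 and monocyte markers 303 and 459, and their part in the Irf4, Irf8 and Maf values was not tested.

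**Figure D3:**
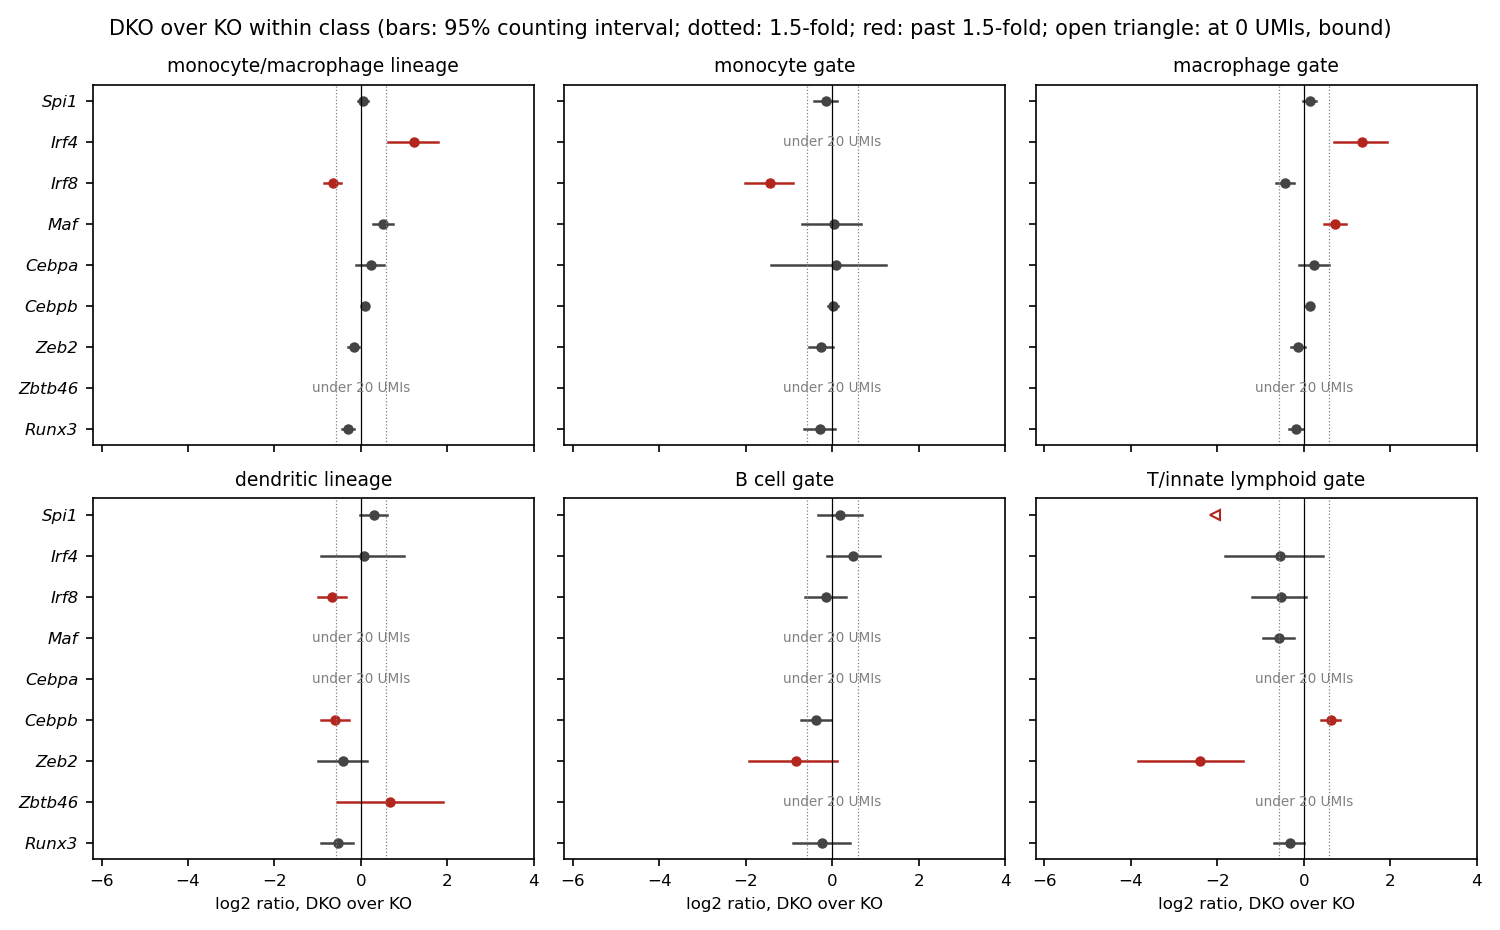
Log2 ratio of DKO over KO for the factors in 6 classes, with bars for the 95% counting interval, dotted lines at 1.5-fold, red points past 1.5-fold and an open triangle at the bound for Spi1, which had 0 UMIs in DKO T and innate lymphoid cells. Irf8 was -1.43 in monocytes and -0.43 in macrophages, Irf4 1.34 and Maf 0.73 in macrophages, and Zeb2 -2.4 in T and innate lymphoid cells.

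The dendritic lineage had 3 of 7 factors past 1.5-fold, beside 27.1% of 4336 genes. Irf8 was 501 [445, 562] CPM in KO and 315 [259.7, 378] in DKO (-0.67 [-1.0, -0.36]). The subsets were unequal in number, with 14 and 3 type 1, 26 and 24 type 2 and 28 and 11 mature cells, and the Irf8 ratio was 1.25 [0.72, 1.76] in type 1, -1.37 [-2.7, -0.28] in type 2 and -0.75 [-1.23, -0.31] in mature cells. With subsets weighted as in KO the ratio of the lineage was 0.23, and with clusters -0.24. Cebpb (-0.59 [-0.92, -0.28]) was 0.64 under the stricter gate and -0.03 with clusters. It differed in mature cells, with 103 UMIs in 13 of 28 KO and 3 in 2 of 11 DKO cells, while type 2 cells had 488 and 490.1 CPM. Zbtb46 had a ratio of 0.67 [-0.56, 1.9], and 0.27 without the cell with most UMIs. Spi1 (0.29), Irf4 (0.07), Zeb2 (-0.41) and Runx3 (-0.54) were within 1.5-fold. By subset, 2 of 4 factors were past it in type 1 (beside 48.6% of 1196 genes), 1 of 6 in type 2 (28.1% of 2383) and 3 of 5 in mature cells (39.8% of 2085).

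The lymphoid lineage had 3 of 7 factors past 1.5-fold, beside 26% of 8091 genes, with Maf (-1.01 [-1.38, -0.68]) and Zeb2 (-1.75 [-2.53, -1.1]) lower and Irf4 (0.60 [0.10, 1.08]) higher in DKO. B cells were 207 of 511 lymphoid cells in KO and 163 of 273 in DKO, and with classes weighted as in KO the Maf ratio was -0.58 and the Irf4 ratio 0.20, both within 1.5-fold. Without the cell with the most UMIs the Irf4 ratio was 0.56. Within B cells 1 of 6 factors was past it, Zeb2 (-0.84 [-1.94, 0.11]), beside 22.6% of 5071 genes, from 30 and 13 UMIs. Spi1 (0.18 [-0.33, 0.69]), Irf4 (0.49 [-0.13, 1.11]) and Irf8 (-0.15 [-0.64, 0.32]) of B cells had intervals that hold 0.

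T and innate lymphoid cells had 3 of 7 factors past 1.5-fold, beside 31.8% of 6820 genes. Cebpb was 383 [352, 416] CPM in KO and 589 [519, 666] in DKO (0.62 [0.40, 0.84]). Over all alternatives this Cebpb ratio was 0.50 to 0.94, and the lower end is within 1.5-fold. Zeb2 was 90.2 [75.5, 107] and 16 [6.45, 33.1] CPM from 132 and 7 UMIs, 5.27-fold lower (-2.4 [-3.83, -1.41]). Spi1, with 42 UMIs in 13 KO cells and 0 in DKO, was at least 4.17-fold lower. Without the 5% highest doublet scores 7 of these KO UMIs remained, in 4 cells, under the minimum count, so that neither the bound nor the call was left. Maf was 273 [247, 301] and 183 [145, 228] CPM (-0.57 [-0.94, -0.22]). Macrophage markers summed to 103 CPM in these KO cells (8 of 8 detected) and 11.5 in the DKO cells (3 of 8 detected), and innate lymphoid markers to 3147 and 1694, and their part in these values was not tested. Neutrophils had 0 of 3 factors past 1.5-fold, with Spi1 at 0.55 [0.16, 0.91] and Cebpb at -0.38 [-0.52, -0.24], beside 36.9% of 1629 genes.

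Another 37 factors of the same families or lineages were listed for context. In the monocyte/macrophage lineage 34 could be compared between genotypes, and 3 were past 1.5-fold higher in DKO, Mafk (0.60), Bach1 (0.65) and Nr4a1 (0.67), beside 12.5% of 9224 genes, and 1 lower, Runx2 (-0.92 [-2.17, 0.01]), beside 8.45% of 9224. BACH1, a repressor of haem and oxidative stress genes, pairs with small MAF proteins such as MAFK. The median log2 ratio of the list was 0.16, against 0.09 over all genes. In dendritic cells 5 of 27 were higher (all genes 10.7% of 4336), among them Irf7 (1.08) and Klf2 (0.93), and 6 lower (16.4% of 4336), among them Irf9 (-1.34). In lymphoid cells 2 of 32 were higher (10.6% of 8091), Spib (1.39), a PU.1 relative of B cells, and Klf2 (0.74), and 7 lower (15.5% of 8091), among them Id2 (-1.56) and Rbpj (-1.35). These ratios pool the lymphoid classes, and B cells held 586317 of 2173502 lymphoid UMIs in KO and 465194 of 919209 in DKO. Related factors were not weighted by class, and the part of class make-up in their ratios was not tested.

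Between classes, 9 of 30 related factors were past 1.5-fold higher in macrophages than in monocytes in both libraries, among them Id2, Nr1h3 and Mitf, beside 12.5% of all genes, and 3 were lower, Irf2, Irf7 and Cebpd, beside 7.76%. Dendritic cells were higher than monocyte/macrophage cells for 3 of 30, Batf3, the partner of IRF8 in type 1 dendritic cells, Relb and Bhlhe40 (all genes 6.35%), and lower for 11, among them Cebpd and Nr1h3 (20.2%). Lymphoid cells were higher for 3 of 33, Spib, Ets1 and Zeb1 (all genes 22.7%), and lower for 18 (22.5%).

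Over 15 sums of class and library with at least 20 cells, the genes whose log2(CPM + 1) correlated best with each factor among 7990 are given as a description, with Pearson's r. They were Plek (0.982), Syk (0.98), Marcks (0.968) for Spi1, Cd302 (0.981), Csf1r (0.979), Sirpa (0.967) for Zeb2, Gm5150 (0.966), Gng12 (0.962), Msrb1 (0.953) for Cebpb and Ocstamp (0.943), Plxnd1 (0.942), Phldb1 (0.941) for Cebpa. For Irf8 they were Acly (0.971), 2310022B05Rik (0.96), Uqcrb (0.958), for Irf4 Rfx7 (0.958), Tspan32 (0.952), Ccdc6 (0.946) and for Runx3 Tmem256 (0.981), Plaa (0.977), Ykt6 (0.975). Maf (Gpaa1 (0.885), Cd200r4 (0.872), Tmem50a (0.864)) and Zbtb46 (Mdh2 (0.814), Serpinb6b (0.807), Cytip (0.80)) had the weakest best matches. Classes of a library share its preparation, so the 15 sums are not independent points.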

How the data were processed

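The deposited values are raw UMI counts per gene and barcode, made by the authors with Cell Ranger 6.0.1 on mm10 from 3′ v3.1 libraries; the submitters' notes also name Seurat 4.3.0. No cell annotation was used. The members, marker lists and related factors were chosen with earlier results of these data known, and the gate thresholds (3 markers, lead of 2) after marker counts, not member values, were seen. The study's cell filter was applied (300 to 5000 genes, mitochondrial share of 10% or less). A doublet caller marked 6 of 2584 and 1 of 742 barcodes, 0.232% and 0.135%, too few to rely on, so mixed-marker cells were left ungated. UMI counts were summed per class and library. Log2 ratios have 0.5 counts added and exact conditional intervals; thinning was to 1500 UMIs. No test was possible with 1 library per genotype. All 9 members are named, with the 3 most similar genes at most, and related factors past 1.5-fold. Alternatives were TMM scaling, no cell filter, stricter gates (4 markers, lead of 3), gates on thinned counts, clusters (2000 variable genes without members, 30 components, 20 neighbours, resolution 0.3), other added counts and exclusions. Python 3.11.15, scanpy 1.11.5, numpy 2.4.6, scipy 1.17.1, R 4.3.3, Seurat 5.3.0 and edgeR 4.0.16 (TMM only) were used. Scripts were tested on simulated data.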

Additional observations from a re-analysis of the deposited data

Results flagged for a closer look

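Maf and Cebpb had genotype ratios of opposite sign in different lineages, and the difference between lineages was not tested. The log2 ratio of DKO over KO for Maf was 0.51 in the monocyte/macrophage lineage and -1.01 in lymphoid cells, and in the latter -0.57 within T and innate lymphoid cells. For Cebpb it was 0.10 in the monocyte/macrophage lineage and 0.19 in lymphoid cells, against -0.59 in dendritic cells, where the stricter gate gave 0.64. The sign in the monocyte/macrophage lineage also turned, with TMM scaling (-0.01), with clusters and with ungated Lyz2 cells added (-0.10).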

How the results depend on the processing

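No paired analysis was possible because each genotype is 1 library and the labels give no replicate numbers. Of 1322 ratios of single factors under the alternatives, 1250 stayed within their counting interval, 66 moved further and 6, all of ratios past 1.5-fold, had the opposite sign. The sign also turned for 48 of the first and second kinds, ratios within 1.5-fold or under the minimum count. The 6 were, of DKO over KO in dendritic cells, Cebpb under the stricter gate (0.64) and Irf8 with subsets weighted as in KO (0.23), and, of dendritic over monocyte/macrophage cells, Irf8 in KO with clusters (-0.10) and Irf4 in DKO under the stricter gate (-1.25), the gate on thinned counts (-0.78) and clusters (-0.0155). The number of factors past 1.5-fold between genotypes was 2 in monocyte/macrophage cells and 1 under the stricter gate, the gate on thinned counts and clusters. It was 3 in dendritic cells, 5 with no minimum count, where more factors could be counted, and 1 with clusters. It was 3 in lymphoid cells and 1 with classes weighted as in KO. Apart from the minimum count, the cause was not tested. Over all alternatives the DKO over KO ratio was -1.62 to -1.0 for Irf8 in monocytes, 1.19 to 1.68 for Irf4 in macrophages and -2.74 to -2.15 for Zeb2 in T and innate lymphoid cells. Without the 5% highest doublet scores the Spi1 ratio in T and innate lymphoid cells, with 0.5 counts added, was -2.26, against -4.66. Leaving out shared barcodes and adding ungated cells with a Lyz2 UMI (Maf 0.21 in monocyte/macrophage cells) were chosen after seeing the data. Depth limits Zbtb46, Irf4 of monocytes and the 3 DKO type 1 dendritic cells.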

Other observations

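The KO library held 185 cells with at least 2 of the 4 inflammatory genes Arg1, Nos2, Ptges and Slc7a2, and the DKO library 0 of 730. The following values are for the 176 of them outside the dendritic and lymphoid gates. Against KO macrophages these cells had less Spi1 (295 CPM, log2 ratio -0.72 [-0.89, -0.55]) and Cebpa (36.7, -1.24 [-1.75, -0.79]). They had more Maf (200.3 CPM, 0.86 [0.62, 1.09]) and Cebpb (2509, 0.60 [0.54, 0.66]). Irf8 was 351 CPM and Irf4 11 UMIs, a ratio of -0.75 [-1.87, 0.13]. The gate of 629 KO macrophages holds 37 of the 176 cells. Both sides of these ratios thus share cells, and their intervals are approximate. Of the 176 cells, 58 were in the monocyte/macrophage lineage and 100 had too few markers for a gate. Without them the Irf8 ratio of DKO over KO in the monocyte/macrophage lineage was -0.63. Cells left ungated for few markers had 422 and 397 CPM of Spi1 and 112 and 48.8 of Maf in KO and DKO.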
